A study of Rattus norvegicus with 12 samples.

Results

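The Bcl2 family apoptosis genes Bbc3, Bcl2l11, Bad, Bid, Bax, Bak1, Bcl2, Bcl2l1, Bcl2l2 and Mcl1 were followed in the rat striatum after subthalamic stimulation, L-DOPA and the combination of both treatments. Their probes were found by gene name in the scanner files, ignoring case, and all 10 genes were present, with 18 of the 41012 probes and 45 of the 43379 spots that carried no control. The array held 35608 named genes or transcripts in all. The family was chosen from Bbc3, which stands in the study's own lists of genes lower after HFS and lower after DOPA, made on these same arrays. The values of Bbc3 are therefore a description with no test, and counts below are over the 9 other members.

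The proteins of this family meet at the outer membrane of mitochondria. Survival members such as Bcl2, Bcl-xL (the product of Bcl2l1), Bcl-w (Bcl2l2) and Mcl1 bind and restrain the effectors Bax and Bak1, which otherwise form pores that release cytochrome c and start the caspase cascade. BH3-only members sense stress and either block the survival proteins or activate the effectors. PUMA, the product of Bbc3, is induced by stress signals, and in neurons it is known as a trigger of death after DNA damage or loss of trophic support.

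All 12 animals were male rats with an injection of 9 μg of 6-hydroxydopamine in the left substantia nigra pars compacta, which destroys the dopamine input to the striatum of that side, and no unlesioned animal is among the arrays. In each of the 4 groups 3 rats were hybridised individually, 1 single-colour Agilent array a rat. The group 6-OHDA had the lesion alone. The group HFS had continuous high frequency stimulation of the subthalamic nucleus on the lesion side for 5 days, at 130 Hz with pulses of 80 μs and 60 μA. The group DOPA was given 25 mg/kg L-DOPA with 12.5 mg/kg benserazide, a blocker of its breakdown outside the brain, by repeated injection for 19 days. The group DOPA/HFS had that same L-DOPA course and the same 5 days of stimulation. The methods describe an electrode for the stimulated groups, so its implantation and the stimulation cannot be told apart. Replicate numbers 1 to 3 were also the 3 slides, each of which carried 1 array of every group, and the place on the slide was fixed for each group, so place and treatment cannot be told apart.

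Between 50.5% and 63.2% of the spots of an array were well above background. On DOPA/HFS replicate 3 the scanner software marked 4175 spots as outliers, against 2 to 25 on each other array. The striatal projection neuron markers were present in every group, with a log2 of their summed signal between 17.94 and 18.39. Pdyn, the prodynorphin gene that L-DOPA is known to induce in the lesioned striatum, had log2 signals of 15.98 to 16.21 on the DOPA arrays and 14.53 to 14.83 on the 6-OHDA arrays. On the array labelled DOPA/HFS replicate 1 it was 14.68, within the range of the 6-OHDA arrays, while the other DOPA/HFS arrays had 15.87 and 15.81. Beside the DOPA/HFS differences of single genes, values without that array are therefore given too. Choroid plexus markers (7 of 9 past the detection filter, Kl and Slc4a5 not) had a log2 summed signal of 12.15 to 16.46 on the HFS arrays. It was 8.39 to 9.56 on the 6-OHDA arrays, 8.59 to 14.04 on the DOPA arrays and 8.11 to 10.06 on the DOPA/HFS arrays. The value of 8.11, on DOPA/HFS replicate 3, lacks Folr1, which had no usable spot there.

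Bbc3 was well above background on all 12 arrays and had the widest difference between group means among the 8 members past the detection filter. It was chosen for its differences on these same arrays, so this rank is no support. Its log2 signals, quantile normalized between arrays, were 12.33, 12.59 and 11.94 on the 6-OHDA arrays. They were 11.43, 11.18 and 11.45 on the HFS arrays. On the DOPA arrays they were 11.61, 11.65 and 11.94. The DOPA/HFS arrays had 11.59, 11.96 and 11.99. All 3 HFS arrays thus lay below every array of the other groups, whereas the DOPA and DOPA/HFS arrays met the lowest 6-OHDA array, which was replicate 3. The group means were 12.28 ± 0.33 (SD, n = 3) in 6-OHDA, 11.85 ± 0.22 in DOPA/HFS, 11.73 ± 0.18 in DOPA and 11.35 ± 0.15 in HFS. In this order, DOPA/HFS overlapped with its neighbours on both sides, and DOPA and HFS did not overlap. The tissue was a punch of dorsal striatum with all its cell types, and fewer cells of a type and less RNA per cell cannot be told apart.

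**Figure D1:**
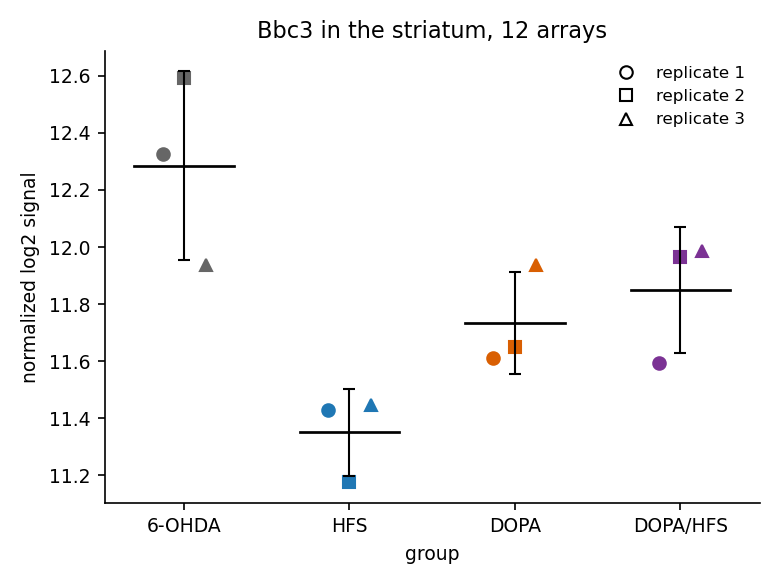
Normalized log2 signal of the single Bbc3 probe on each of the 12 arrays by group, with the mean (horizontal line) and SD (error bar) of 3 arrays. Marker shapes give the replicate number, which is also the slide, and the axis does not start at 0. The HFS arrays sit between 11.18 and 11.45, below all other arrays, and 6-OHDA replicate 3 is at the level of the highest DOPA array.

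On the log2 scale the HFS mean of Bbc3 differed from that of 6-OHDA by -0.93 (SE 0.19), a ratio of 0.523, and the difference within slides 1, 2 and 3 was -0.90, -1.42 and -0.49. DOPA differed from 6-OHDA by -0.55 (SE 0.19), with within-slide differences of -0.71, -0.94 and 0.003. The DOPA/HFS difference from 6-OHDA was -0.44 (SE 0.19), and -0.31 without DOPA/HFS replicate 1. On slide 3, then, the DOPA array and the 6-OHDA array had the same Bbc3 signal, and the mean decrease after DOPA rests on the other slides. Without 6-OHDA replicate 3 the DOPA difference was -0.73 and without 6-OHDA replicate 2 it was -0.40.

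Bbc3 had been listed as low on the HFS arrays, so its comparison with DOPA/HFS is a description only. All 3 DOPA/HFS arrays lay above all 3 HFS arrays, by 0.50 in the means (SE 0.19) and by 0.17, 0.79 and 0.54 on slides 1 to 3. In this comparison the arrays did not overlap for 7.12% of all genes. Against DOPA alone the Bbc3 difference was 0.11 (SE 0.19) with overlapping arrays. Without DOPA/HFS replicate 1 the Bbc3 difference was 0.62 against HFS and 0.24 (SE 0.21) against DOPA. The mean of HFS was thus below that of 6-OHDA, while the mean of DOPA/HFS was not below that of DOPA, and the effect of HFS with L-DOPA minus that without it was 1.05 (SE 0.27). This difference of differences was 0.88, 1.73 and 0.54 on slides 1 to 3, and 1.18 without DOPA/HFS replicate 1. It contains the HFS and DOPA values for which Bbc3 was listed, so it is a description only.

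The choroid plexus signal moved with the HFS group as well, and its part in the Bbc3 values was not tested. Within HFS, replicate 2 had the lowest choroid plexus level (12.15) and the lowest Bbc3 signal (11.18). In the DOPA group the array with the highest choroid plexus level, replicate 3 at 14.04, had the highest Bbc3 signal, 11.94. Without that array the DOPA difference in Bbc3 was -0.65. In the DOPA/HFS group the lowest choroid plexus level (8.11, a sum without Folr1) and the highest Bbc3 signal (11.99) were both on replicate 3. Replicate 2 of that group had the highest choroid plexus level, 10.06, and a Bbc3 signal of 11.96, close to that of replicate 3. In 6-OHDA, replicate 2 was the highest in both (9.56 and 12.59). HFS replicates 1 and 3 had choroid plexus levels of 16.46 and 15.47, and Bbc3 signals of 11.43 and 11.45.

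Of the other BH3-only genes, only Bad was well above background on most arrays of every group. Bad, whose product ties survival to growth factor signalling, was measured by 2 probes. The brighter one had log2 signals of 12.65, 12.74 and 12.57 on the 6-OHDA arrays and 12.59, 12.63 and 12.68 on the HFS arrays. It had 12.71, 12.75 and 12.61 on the DOPA arrays, and 12.49 and 12.80 on DOPA/HFS replicates 1 and 2, the spot on replicate 3 being an outlier that was left out. All groups overlapped within a range of 0.31, the narrowest among the members that passed the filter. The 95% interval of the HFS difference was -0.32 to 0.28 (log2 fold change -0.02, limma adjusted p = 0.998) and that of the DOPA difference -0.26 to 0.33 (0.04, limma adjusted p = 1). The other Bad probe gave -0.12 (SE 0.18) and 0.13 (SE 0.18) in the same comparisons.

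Bid, which caspases cleave to link death receptors to mitochondria, was near the detection limit. It was well above background on 7 of 12 arrays, namely 1 of the 6-OHDA, 3 of the HFS, 1 of the DOPA and 2 of the DOPA/HFS arrays. Its log2 signals ran from 4.60 to 6.05 on the 6-OHDA arrays, from 5.44 to 5.65 on HFS, from 4.90 to 5.38 on DOPA and from 5.29 to 6.13 on DOPA/HFS. The 6-OHDA arrays alone covered nearly all of this range, and the pooled SD of 0.46 was the highest among member probes past the filter, against a median of 0.27 over all genes tested. With so few arrays above background no direction is given for Bid. The widest difference in means, 0.62 between DOPA/HFS and DOPA, had a 95% interval of -0.13 to 1.36, and was 0.54 without DOPA/HFS replicate 1 and 0.17 in the log2 table that the authors deposited. Bcl2l11, which encodes Bim, lay within the background on all 12 arrays, so nothing can be said of its direction.

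Of the effectors, Bax was the only one of the 7 tested members to reach an unadjusted p under 0.05 in any of the 6 limma comparisons. The share of all genes that did so in any of the 6 was not counted. In a single comparison it was 1.98% to 3.78%, so the count of members is not read as a result. The single Bax probe was printed in 10 spots, all of which were kept on every array. The SD over these spots was at most 0.08. Its log2 signals were 9.39, 9.61 and 9.76 on the 6-OHDA arrays and 9.97, 10.06 and 9.57 on the HFS arrays. They were 9.83, 9.93 and 9.92 on the DOPA arrays and 9.63, 9.72 and 9.47 on the DOPA/HFS arrays. The DOPA arrays lay above all 6-OHDA arrays and above all DOPA/HFS arrays, and HFS replicate 3 stood apart from the other HFS arrays, at the level of 6-OHDA. The SD between arrays was 0.26 for HFS, 0.19 for 6-OHDA, 0.12 for DOPA/HFS and 0.06 for DOPA, in each case above the standard error of the mean over the spots, which was at most 0.025.

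Bax differed by 0.31 (SE 0.16, 95% interval -0.05 to 0.67) between DOPA and 6-OHDA, with 0.45, 0.32 and 0.16 within slides 1 to 3. The exact two-sided permutation test gave p = 0.1, the smallest that 3 against 3 arrays allow, and limma an unadjusted p of 0.0859 and an adjusted p of 1. For HFS the difference from 6-OHDA was 0.28 (SE 0.16, limma unadjusted p = 0.118, adjusted p = 0.998), and the within-slide values 0.58, 0.44 and -0.20 did not share a sign. DOPA/HFS differed from 6-OHDA by 0.02 (SE 0.16), and from DOPA by -0.29 (SE 0.16, limma unadjusted p = 0.105). These Bax differences were 0.01 and -0.30 without DOPA/HFS replicate 1.

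The effect of HFS with L-DOPA on Bax minus that without it was -0.56 (SE 0.23, 95% interval -1.07 to -0.06), and -0.78, -0.66 and -0.25 on slides 1 to 3. Its limma unadjusted p was 0.0324 and its adjusted p 1, so it did not pass over all genes tested. It was -0.58 without DOPA/HFS replicate 1. Bax was 1 of 7 tested members below an unadjusted p of 0.05 in this contrast, where 1.98% of all genes were.

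Bak1, the other effector, had log2 signals of 9.83, 10.12 and 9.82 on the 6-OHDA arrays, and from 9.71 to 9.94 on the HFS and DOPA arrays. On the DOPA/HFS arrays it had 9.79, 9.69 and 9.65. These lay just under the lowest 6-OHDA array, a difference of -0.21 (SE 0.13, 95% interval -0.51 to 0.08, limma unadjusted p = 0.137, adjusted p = 1). The Bak1 difference was -0.25 without DOPA/HFS replicate 1, without 6-OHDA replicate 2 it was -0.12, and in the deposited log2 table -0.38. In the other comparisons the Bak1 arrays overlapped, with differences from -0.12 to -0.09, and without DOPA/HFS replicate 1 of -0.16 against DOPA and -0.14 against HFS.

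**Figure D2:**
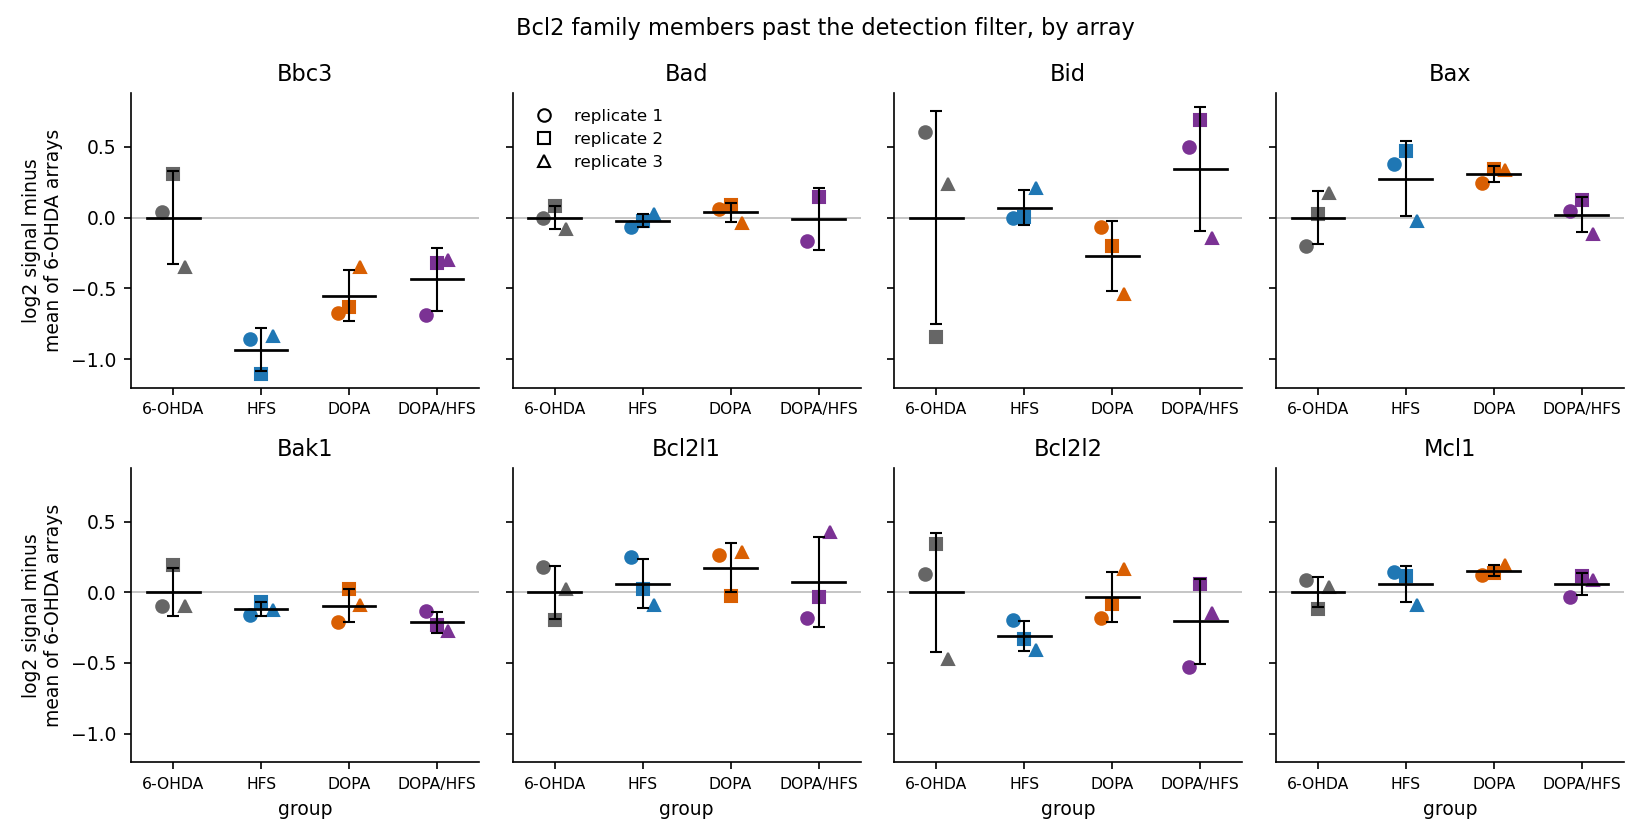
Log2 signal of the 8 members past the detection filter on each array, minus the mean of the 6-OHDA arrays of that gene, by group, with the mean (line) and SD (error bar) of the arrays and marker shapes for the replicate number. All panels share an axis. Bbc3, chosen for its HFS and DOPA differences on these arrays, shows the widest separation of HFS from 6-OHDA. Bax is higher on the DOPA arrays than on the 6-OHDA arrays, and Bad has no value on DOPA/HFS replicate 3.

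Of the survival genes, Bcl2 itself could not be compared. Its main probe, printed in 10 spots, was within the background on all 12 arrays, and a probe for the Bcl-2 beta transcript was well above background on 2 HFS arrays and on no other array. Bcl2l1 was measured by 4 probes, of which 3 passed the filter. The brightest, for a transcript variant of Bcl2l1, had log2 signals of 12.36, 11.99 and 12.20 on the 6-OHDA arrays, and all groups overlapped between 11.99 and 12.61. The 95% intervals of the Bcl2l1 difference from 6-OHDA were -0.35 to 0.47 for HFS, -0.24 to 0.59 for DOPA and -0.35 to 0.48 for DOPA/HFS. The 3 probes shared the sign of the differences for HFS, with 0.06, 0.11 and 0.10, and for DOPA, with 0.17, 0.04 and 0.08. For DOPA/HFS the brightest probe gave 0.07, or 0.20 without replicate 1 and -0.11 without replicate 3 of that group, and the others -0.08 and -0.09, each with an SE of about 0.2.

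Bcl2l2 showed how much a result can rest on the probe. The brighter of its 2 probes had log2 signals of 12.32, 12.53 and 11.72 on the 6-OHDA arrays and 11.99, 11.86 and 11.78 on the HFS arrays, which overlapped through 6-OHDA replicate 3. Its HFS difference was -0.31 (SE 0.22, 95% interval -0.80 to 0.18, limma unadjusted p = 0.186). The other probe, also well above background on all 12 arrays, gave 0.24 (SE 0.23), in the opposite direction. For DOPA/HFS against 6-OHDA they gave -0.20 and 0.26. Without DOPA/HFS replicate 1 the brighter probe gave -0.04 in that comparison.

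Mcl1, a survival gene with a short-lived product, had the lowest pooled SD of the members, 0.09. Its brightest probe had log2 signals of 9.68, 9.48 and 9.63 on the 6-OHDA arrays and 9.72, 9.73 and 9.79 on the DOPA arrays. The DOPA arrays were all higher, by 0.15 in the means (SE 0.13, 95% interval -0.13 to 0.43, exact permutation p = 0.1, limma unadjusted p = 0.252). They were also above the DOPA/HFS arrays, which had 9.56, 9.71 and 9.68, a difference of -0.10 (SE 0.13) between DOPA/HFS and DOPA, and -0.05 without DOPA/HFS replicate 1. Its other bright probe gave 0.01 (SE 0.15) for DOPA against 6-OHDA. Another, which the files name Mcl1 but describe as another locus, was well above background on 1 array.

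**Figure D3:**
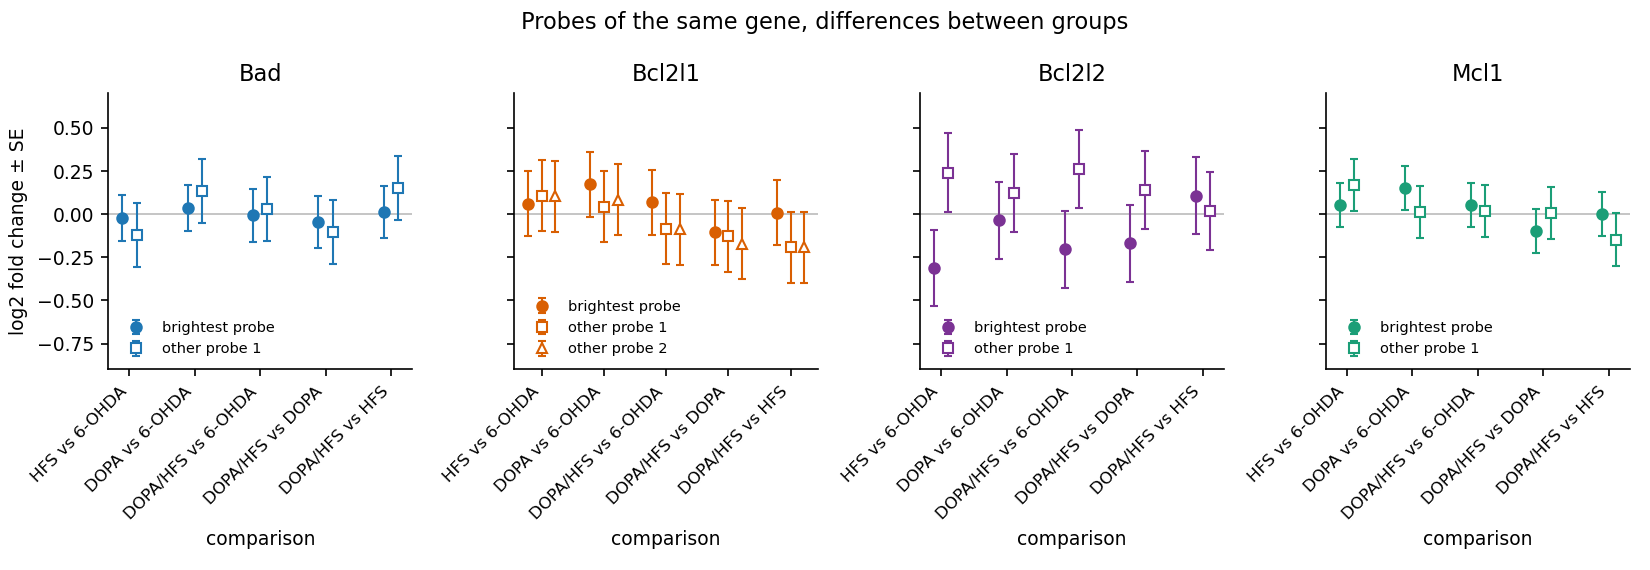
Log2 fold change of each probe past the detection filter in 5 comparisons for the members with more than 1 such probe, with the SE as error bar, filled for the brightest probe of the gene and open for the others. The probes of Bad, Bcl2l1 and Mcl1 lie within about 1 SE of each other in most comparisons, while those of Bcl2l2 take opposite signs for HFS against 6-OHDA, -0.31 and 0.24.

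Among the members other than Bbc3, 7 were tested and none passed the adjusted threshold in any of 6 comparisons, which asked for a limma adjusted p under 0.1 together with a ratio above 1.2 or below 0.8. This is to be read against the whole array, where 0.0049% of the 20398 genes tested were called for DOPA (Igsf5, outside the rule for named genes and chosen after its value was seen) and 0% in each of the other 5 comparisons. The counts of members at a limma unadjusted p under 0.05 were 0 of 7 for HFS (2.34% of all genes), 0 for DOPA (2.58%), 0 for DOPA/HFS (2.75%), 0 for DOPA/HFS against DOPA (3.78%) and 0 for DOPA/HFS against HFS (2.44%). Non-overlapping arrays were found for 0 of 7 members for HFS (5.14% of all genes) and for Bax and Mcl1 for DOPA (6.28%). Bak1 did not overlap for DOPA/HFS (5.07%), Bax and Mcl1 for DOPA/HFS against DOPA (10.6%), and no member for DOPA/HFS against HFS (7.12%).

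The median log2 fold change of the 7 members was 0.06 for HFS, 0.04 for DOPA and 0.02 for DOPA/HFS against 6-OHDA, and over all genes tested it was 0.01, -0.01 and -0.01. With 3 arrays a group, the 95% intervals of these members were wide. For HFS against 6-OHDA they reached from -0.80 for Bcl2l2 to 0.81 for Bid. HFS, DOPA and DOPA/HFS were compared with the same 3 6-OHDA arrays.

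**Figure D4:**
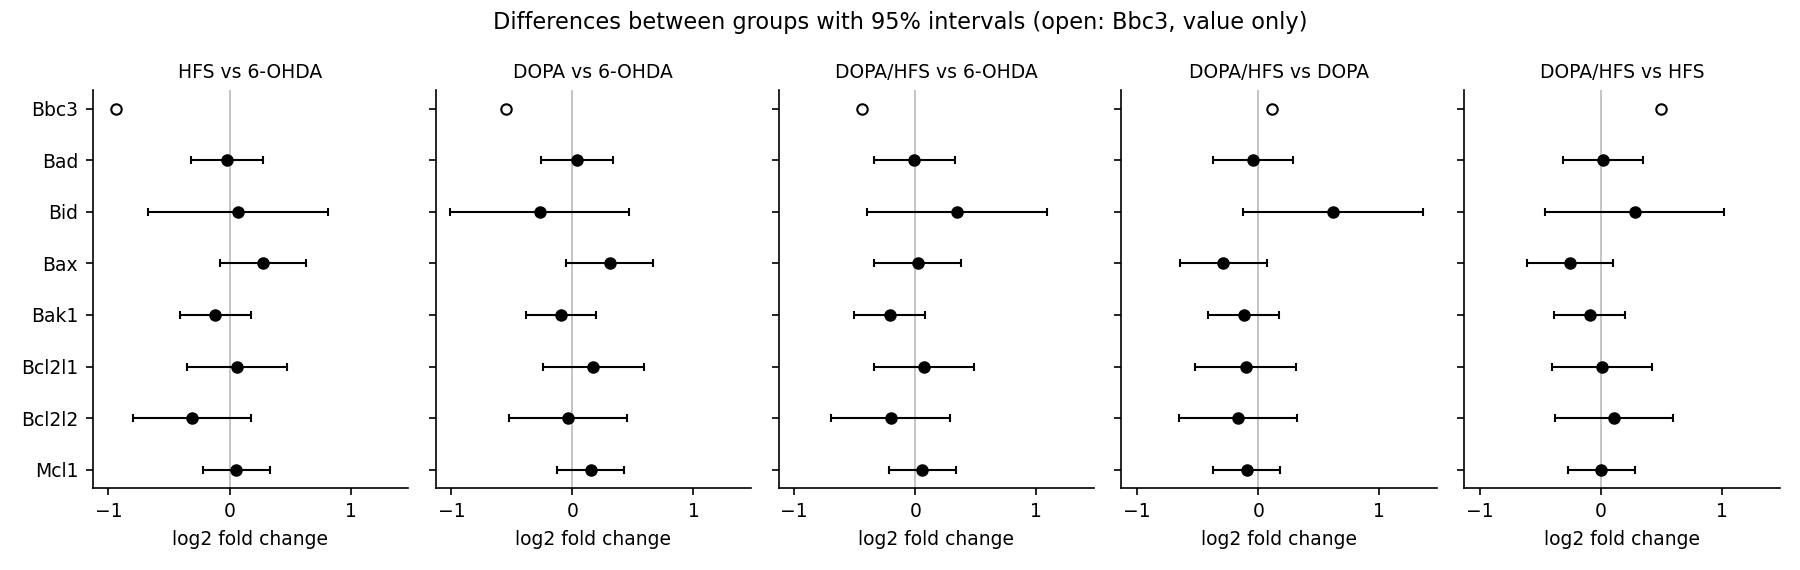
Log2 fold changes of the 8 members past the detection filter in 5 comparisons, as points with 95% intervals from limma for 7 members and as an open point without interval for Bbc3, which chose the family. All intervals drawn include 0. Bbc3 lies at -0.93 for HFS and at 0.50 for DOPA/HFS against HFS.

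The rest of the apoptosis pathway was examined through 5 lists of 54 genes, of which 52 were on the array and 44 passed the filter. Pmaip1 and Htra2 were not found by name, and Bcl2a1, Bcl2l14, Casp8, Dffb, Tp73, Foxo3, Faslg and Ripk1 were too dim. None of the 44 passed the adjusted threshold in any comparison. At a limma unadjusted p under 0.05, 1 was higher and 2 lower for HFS, where 2.34% of all genes lay under that p. For DOPA 2 were higher and 0 lower (2.58% of all genes), and for DOPA/HFS against 6-OHDA 0 were higher and 1 lower (2.75%). Of the 44 genes, 1 was higher and 2 lower in DOPA/HFS than in DOPA (3.78% of all genes), and likewise 1 and 2 in DOPA/HFS than in HFS (2.44%). In the difference of the HFS effects 0 were higher and 2 lower (1.98%). The median over the 44 genes was -0.01 for HFS, -0.03 for DOPA and -0.02 for DOPA/HFS.

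Upstream of the family, Trib3, a stress-induced pseudokinase, was lower on all HFS arrays (5.17, 5.46 and 5.39) than on the 6-OHDA arrays (5.97, 6.21 and 5.59), by -0.58 (SE 0.24, limma unadjusted p = 0.0312, adjusted p = 0.998). Trib3 was 1 of 9 tested upstream regulators below an unadjusted p of 0.05 for HFS, against 2.34% of all genes. Its signals were about as low as those of Bid (4.60 to 6.13), so its direction is uncertain. Cdkn1a, a cell cycle inhibitor, was lower on all DOPA/HFS arrays (8.17, 7.13 and 7.43) than on the HFS arrays (8.30, 8.38 and 8.22), by -0.72 (SE 0.29, limma unadjusted p = 0.0276, adjusted p = 1), and its effect of HFS with L-DOPA minus that without it was -1.04 (SE 0.40, limma unadjusted p = 0.0252). Without DOPA/HFS replicate 1 these Cdkn1a differences were -1.02 and -1.34.

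Downstream, Xiap, an inhibitor of caspases, had log2 signals of 6.55, 6.94 and 6.96 on the 6-OHDA arrays, and 6.11, 6.50 and 6.17 on the DOPA/HFS arrays. These were below all arrays of the other groups, by -0.56 against 6-OHDA (SE 0.19, limma unadjusted p = 0.0149), -0.71 against DOPA (unadjusted p = 0.00362) and -0.66 against HFS (unadjusted p = 0.00585), all at a limma adjusted p of 1. The effect of HFS with L-DOPA minus that without it was -0.81 for Xiap (SE 0.27, limma unadjusted p = 0.0126). Without DOPA/HFS replicate 1 the Xiap difference was -0.48 from 6-OHDA (limma unadjusted p = 0.0513), -0.64 from DOPA and -0.58 from HFS, and the difference of the effects -0.74. Casp2, an initiator caspase, was higher on the HFS arrays (11.38, 11.27 and 11.03) than on the 6-OHDA arrays (10.71, 10.89 and 10.98), by 0.37 (SE 0.15, limma unadjusted p = 0.0317). These were the only 2 of 15 tested caspase, apoptosome and inhibitor genes below an unadjusted p of 0.05 in any comparison. The share of all genes below it in any of the 6 comparisons was not counted. In a single comparison it was 1.98% to 3.78%, which is no measure for a count over all 6.

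In the death receptor list, Cflar, which encodes the caspase-8 inhibitor c-FLIP, was higher on the DOPA arrays (13.17, 13.44 and 13.19) than on the 6-OHDA arrays (12.68, 12.45 and 12.10), by 0.85 (SE 0.25, limma unadjusted p = 0.00699, adjusted p = 1). DOPA/HFS replicates 1 and 2 had 12.13 and 13.13, replicate 3 having no usable spot, and the difference from DOPA was -0.64 (SE 0.28, limma unadjusted p = 0.0479). It rested on replicate 1, since without that array it was -0.14 (SE 0.26, limma unadjusted p = 0.607). Tradd, an adaptor of the tumour necrosis factor receptor, was lower on the HFS arrays than on both the 6-OHDA arrays (-0.42, SE 0.19, limma unadjusted p = 0.0473) and the DOPA/HFS arrays, which were higher by 0.45 (unadjusted p = 0.0361), or by 0.51 without DOPA/HFS replicate 1. Of the binding partners, Bag3, a co-chaperone that binds Bcl2, was higher for DOPA (0.51, SE 0.19, limma unadjusted p = 0.0228). Of the other family genes, Bmf, a BH3-only gene, had a higher mean in DOPA/HFS than in DOPA (0.46, SE 0.17, limma unadjusted p = 0.0187). Without DOPA/HFS replicate 1 this Bmf difference was 0.32 (limma unadjusted p = 0.0834). The Bmf signals were as low as those of Bid, lying within the Bid range on all arrays, so the direction for Bmf is uncertain. Hrk, another BH3-only gene, is named Bid3 in the files and is no probe of Bid.

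**Figure D5:**
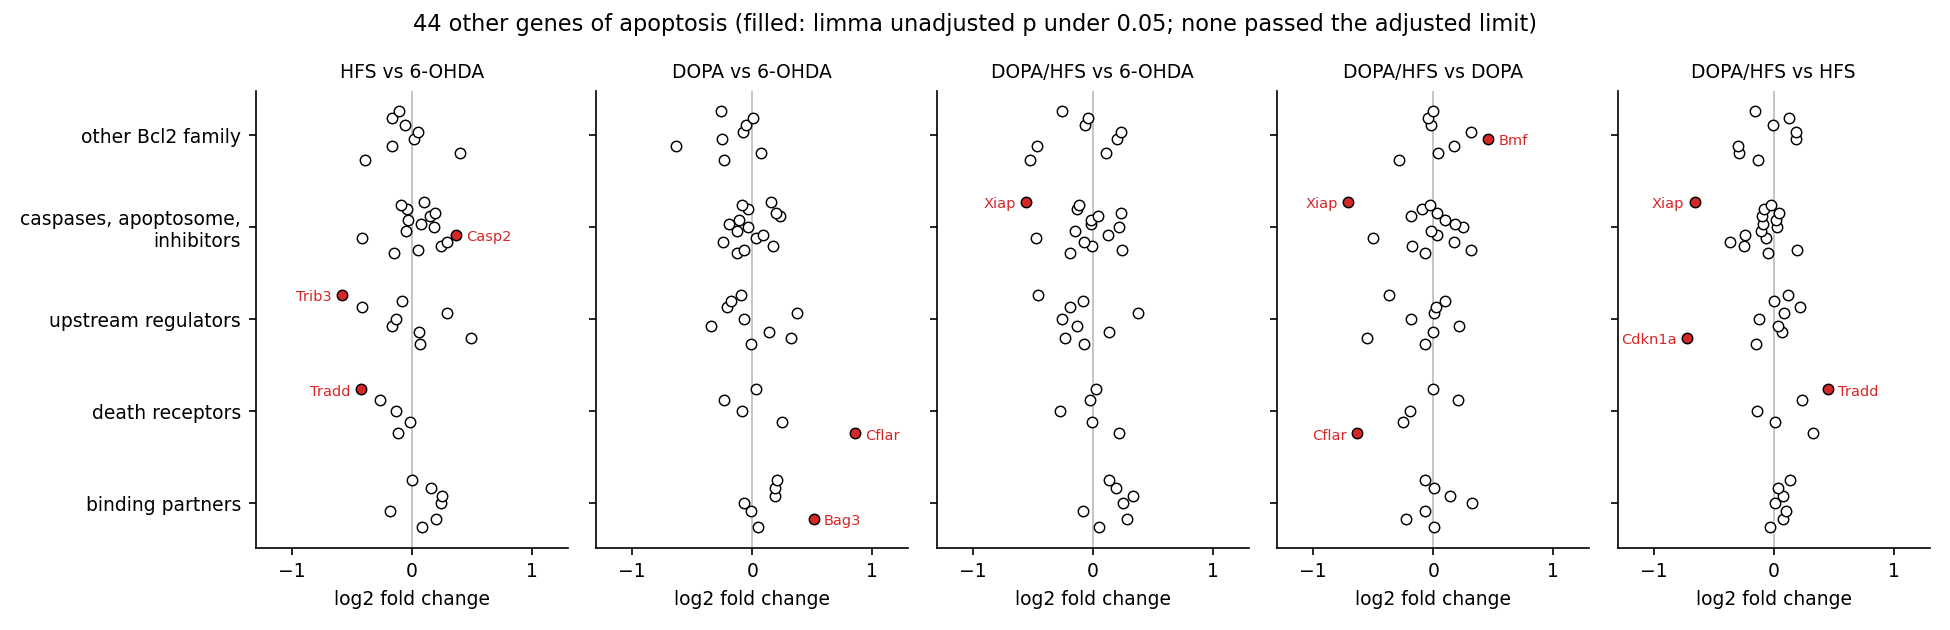
Log2 fold changes of 44 other apoptosis genes by list in 5 comparisons, 1 point a gene. Filled points with names had a limma unadjusted p under 0.05, and none passed the adjusted threshold. Xiap is the name that recurs in the 3 comparisons with DOPA/HFS.

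Bax was also set against a survival gene on the same array, as the change in their log2 difference from the 6-OHDA mean. Bcl2 could not serve for this, being under detection, so Bcl2l1 was taken instead after the data were seen. The Bax minus Bcl2l1 difference was 0.22 ± 0.20 (SD, n = 3) on the HFS arrays, 0.13 ± 0.21 on the DOPA arrays and -0.05 ± 0.43 on the DOPA/HFS arrays, against an SD of 0.33 within 6-OHDA, so no group left the range of the untreated arrays by more than their spread.

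Of 18349 genes with a value on all 12 arrays, those whose log2 signal followed that of Bbc3 most closely were the unnamed transcripts CB614165 (Pearson r = 0.923 over 12 arrays), TC543894 (0.880) and TC529772 (0.879), then Cited1 (0.856) and Cacna1b (0.853). Cited1 encodes a transcriptional coactivator and Cacna1b the pore subunit of the N-type calcium channel. With the group means removed, the correlations were 0.970, 0.825, 0.936, 0.717 and 0.793. These genes were picked on the same 12 arrays, which share slides and scans, and the values are a description.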

How the data were processed

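Striatal RNA of 12 rats was measured on 12 single-colour Agilent rat arrays. The intensity values are those the authors deposited as scanner files, in which Agilent Feature Extraction 9.1.3.1 per the file headers (9.1 per the labels) had subtracted the background of each spot on a linear scale. The log2 table deposited by the authors had been quantile normalized by them and served as an alternative.

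Here control spots (1639 of 45018) and spots marked as outliers were dropped, and log2 intensities were quantile normalized and averaged over the spots of a probe. Probes well above background on at least 5 of 12 arrays were kept (24239), and a gene was its brightest kept probe (20398 genes). Accessions named 10735 probes through RefSeq. limma 3.58.1 in R 4.3.3 (with the packages jsonlite 2.0.0 and data.table, version 1.17.8) was fitted over all genes and 4 groups without a block, and calls were made at a false discovery rate (Benjamini-Hochberg) below 0.1 with a ratio above 1.2 or below 0.8. The SAM test of the methods was not run here. Scripts were tested on simulated data. Precision is limited by the number of arrays.

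All members are named. Of the pathway lists, genes at an unadjusted p under 0.05 are named, at most 4 a list and comparison, and of the other genes the 5 most correlated with Bbc3. The result for 1 gene of these lists is not reported here. The members and lists were chosen with earlier results of these data known. Same-numbered arrays of 2 groups had a median correlation of deviations of 0.11 over 18 pairs, 10 of them over 0.1, against -0.07 over 36 pairs of different numbers, 7 of them over 0.1. Arrays of the same slide were thus more alike at the median. The main fit still had no block for the slide, and the values from a fit with that block are given below. The numbers were taken as slides and not as pairs of animals.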

Additional observations from a re-analysis of the deposited data

Results flagged for a closer look

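Bbc3 was singled out because its differences with L-DOPA ran in opposite directions with and without stimulation. Every DOPA array lay below the 6-OHDA mean, by -0.67 to -0.35 on the log2 scale, and every DOPA/HFS array lay above the HFS mean, by 0.24 to 0.64. The difference of the effects was 1.05 (SE 0.27), and it was not tested because Bbc3 chose the family. The low HFS and DOPA values for which Bbc3 was listed enter both this difference and the flag, so neither is support.

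Bax was singled out because its differences had the opposite signs. The flag asked only that all arrays of a group lie on the same side of another group's mean. The share of all genes that meet it was not counted. Every DOPA array lay above the 6-OHDA mean, by 0.24 to 0.34, and every DOPA/HFS array lay below the HFS mean, by -0.39 to -0.15. The DOPA/HFS and HFS arrays themselves overlapped, since HFS replicate 3 (9.57) was below DOPA/HFS replicates 1 and 2 (9.63 and 9.72). The difference of the effects was -0.56 (SE 0.23), with a limma unadjusted p of 0.0324 and, adjusted over the whole table, a p of 1.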

How the results depend on the processing

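No member other than Bbc3 was called in any of the 6 comparisons under another scaling, background correction, filter, probe rule, treatment of outlier spots, replicate block or p threshold, nor with only the arrays compared or with any array left out (0 to 0 members). Over all genes, these settings called 0 to 3 for HFS, 0 to 13 for DOPA and 0 to 3 for DOPA/HFS against 6-OHDA. They called 0 to 1 for DOPA/HFS against DOPA, 0 to 6 for DOPA/HFS against HFS and 0 to 1 for the difference of the HFS effects. With so few calls over the array, the count of 0 members says little about the members. The lowest adjusted p of a member in these limma fits was 0.549, for Bcl2l2 after HFS. Where the fold limits and non-overlapping arrays replaced limma, Bax was 1 member called for DOPA, among 791 genes of the whole array. Of 1000 values of member and setting, 924 kept their sign and 31 moved by more than the SD between arrays, 12 of these where outlier spots were kept. Bbc3 kept its sign in all comparisons, from -1.11 to -0.78 for HFS, -0.73 to -0.40 for DOPA and -0.61 to -0.28 for DOPA/HFS against 6-OHDA. This is no support in any comparison. Bbc3 was chosen for being lower after HFS and after DOPA than in 6-OHDA, and each comparison uses some of those arrays. Bax ran from -0.15 to 0.11 for DOPA/HFS against 6-OHDA. Without DOPA/HFS replicate 1, limma called 13 genes of the array for DOPA in place of 1, none of them a member. The replicate block moved no member's value by more than 0.02, and gave Bax an unadjusted p of 0.0388 for the difference of the HFS effects. By their deviations, 5 of 12 arrays were nearest to an array of their own number. Of the pairs compared, 18 shared a number and 36 did not, so some such matches arise in any case. Nothing about the slides is read from this count. Bcl2, Bcl2l11 and, on most 6-OHDA and DOPA arrays, Bid were too close to background for a comparison.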
